A study of Mus musculus with 6 samples.

Results

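The expression of 50 genes of cell division was examined, namely genes of the spindle, the kinetochore, the mitotic checkpoint, cytokinesis and condensin. They were chosen by name, for what their proteins do, with earlier results of these data known. Of the 50 genes, 47 had a probe set that the array annotation assigns to that gene alone, against 12394 such genes on the whole array. *Cdca8*, *Espl1* and *Kif20b* had none. Each gene was read by 1 probe set, the one with the highest mean over all arrays. A gene was tested where 3 or more of the 6 arrays reached the 40th percentile of their own values, which kept 40 of the 47 genes among 8693 genes in all. *Nek2* reached that percentile in 5 arrays and the other 39 tested genes in all 6, so none was kept through 1 group of arrays alone.

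RNA of thymocytes from mice 3 weeks of age was hybridized to 6 Affymetrix arrays, and each value below is a log2 expression level. All mice were C57BL6 and lacked *Cd3e*, an invariant chain of the T cell receptor complex, without which thymocytes stop before the pre-T cell receptor can signal (*Cd3e-/-*). By their label, the 3 arrays labelled SCL-LMO1 came from mice that also carried 2 transgenes. These were the oncogene SCL driven by the Sil promoter and the oncogene LMO1 driven by the Lck promoter, which is active in thymocytes. The 3 arrays labelled control came, by that label, from *Cd3e-/-* mice with neither transgene. The values of *Lmo1* went against these labels, as described below. The study set these groups against each other to look for genes that give pre-leukemic thymocytes the capacity to self-renew. Cells were taken from the dissected thymus, and no sort is given. Whether the arrays of a group stand for different mice is not said anywhere. The p-values hold for the scatter among 3 arrays, which may be technical, and this small number limits the precision.

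In mitosis the chromosomes are compacted by condensin and untangled by topoisomerase II, and each pair of sister chromatids is bound to spindle microtubules through kinetochores built on centromeric chromatin. The spindle checkpoint holds back the anaphase promoting complex until every kinetochore is attached. Then securin is destroyed, separase cuts cohesin, kinesins and microtubule binding proteins pull the spindle apart, and the contractile ring divides the cell. Most of these genes are transcribed late in the cell cycle and are near silent in resting cells, which is why *Mki67* serves as a stain for dividing cells. In the thymus, immature thymocytes divide before and after they rearrange the T cell receptor beta chain gene.

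Promoters of such genes often carry a CCAAT box and the letters TTTGAA, the cell cycle homology region, through which the DREAM complex and B-MYB with FOXM1 are known to act. These 4 promoters are shown because their genes had the largest differences between the groups among those with a sequence available. Each runs from 250 bases before to 50 bases after the annotated start of the gene in RefSeq on the build GRCm38.p6, 5′ to 3′ along the gene's strand, and capitals mark TTTGAA and CCAAT on either strand. *Kpna2* lies on the minus strand at chr11:106999476-106999775, *Mki67* on the minus strand at chr7:135716330-135716629, *Plk1* on the plus strand at chr7:122159185-122159484 and *Bub1* on the minus strand at chr2:127831810-127832109.
Kpna2: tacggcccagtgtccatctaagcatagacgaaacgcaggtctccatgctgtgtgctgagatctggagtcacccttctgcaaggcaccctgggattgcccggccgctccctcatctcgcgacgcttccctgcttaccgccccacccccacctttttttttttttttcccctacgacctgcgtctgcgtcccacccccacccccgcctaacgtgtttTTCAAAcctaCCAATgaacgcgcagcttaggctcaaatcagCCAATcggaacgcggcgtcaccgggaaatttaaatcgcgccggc
Mki67: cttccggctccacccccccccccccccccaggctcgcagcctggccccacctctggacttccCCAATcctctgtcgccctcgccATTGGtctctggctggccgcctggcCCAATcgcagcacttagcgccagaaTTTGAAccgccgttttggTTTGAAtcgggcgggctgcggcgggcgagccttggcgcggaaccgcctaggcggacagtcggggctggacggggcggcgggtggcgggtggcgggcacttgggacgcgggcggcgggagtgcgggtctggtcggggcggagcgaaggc
Plk1: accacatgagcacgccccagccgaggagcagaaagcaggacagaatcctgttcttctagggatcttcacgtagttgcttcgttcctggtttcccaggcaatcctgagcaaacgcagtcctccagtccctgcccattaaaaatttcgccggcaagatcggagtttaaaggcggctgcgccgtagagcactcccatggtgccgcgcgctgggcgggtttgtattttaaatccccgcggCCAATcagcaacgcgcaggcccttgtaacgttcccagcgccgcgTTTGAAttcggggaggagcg
Bub1: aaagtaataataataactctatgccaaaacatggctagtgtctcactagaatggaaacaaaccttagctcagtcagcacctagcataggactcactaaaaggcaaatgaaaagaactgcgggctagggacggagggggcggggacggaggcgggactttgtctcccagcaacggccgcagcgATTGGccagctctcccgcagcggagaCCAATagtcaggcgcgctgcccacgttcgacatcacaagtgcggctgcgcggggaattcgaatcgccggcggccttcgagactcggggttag

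The *Mki67* promoter held TTTGAA at 2 places and CCAAT at 3. In that of *Kpna2* TTTGAA and 1 CCAAT stood close together before the start, and another CCAAT lay just after it. In that of *Plk1* the TTTGAA lay after the start. The *Bub1* window had CCAAT at 2 places and no TTTGAA. Promoter sequences were at hand for 36 of the 40 tested genes, as 39 windows since some genes have more than 1 start. TTTGAA stood in 29 of the 39 windows, or 74.4%, against 17.9% of all 32851 windows of that length. CCAAT was found in 31 of them, or 79.5%, against 37.4% of all. The E box CANNTG, the letters that SCL and its E protein partners bind, was in 56.4% against 72.3%, and the GATA letters AGATAA in 2 windows, or 5.13%, against 11.2%. Among windows of the tested genes the shares were 12.0% for TTTGAA, 37.0% for CCAAT, 63.9% for the E box and 6.63% for the GATA letters, close to the 5.13%. GGCGGGAA, an E2F site, was in 0 of 39, in 2.19% of all and in 3.79% of windows of the tested genes. Both strands were searched, and E box letters can overlap TTTGAA or CCAAT, so a stretch may count for more than 1 motif. These are matches of letters and do not show that a protein binds there. The 26 tested genes with TTTGAA had a median difference between the groups of 0.57 on the log2 scale, and the 10 without had 0.48, with ranges of 0.06 to 1.15 and -0.16 to 0.88 that overlap.

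The labels were checked on the altered genes first. *Lmo1* read 5.11, 5.07 and 4.86 in the SCL-LMO1 replicates 1, 2 and 3 and 6.64, 6.84 and 6.77 in the control replicates, an order kept for all values below. It was thus lower in every array labelled as carrying it, by 1.74 ± 0.14 (SE, n = 3 against 3, limma adjusted p = 0.000833), which goes against the label. Whether its probe set reads the transgene beside the mouse gene is not said in the sources. *Tal1*, the mouse gene for SCL, did not reach the percentile in any array, with 4.55 to 4.71 against 4.27 to 4.44. *Cd3e* read 8.41 to 8.72 in all 6 arrays, and where its probe set lies relative to the deleted part is not known from the sources. Every difference below is the arrays labelled SCL-LMO1 minus control as the labels stand, and SCL-LMO1 array or replicate means one so labelled. This direction is the opposite of the one the study's own list of changed genes gives for *Kpna2*, the member of the 50 for which this was checked, and for *Cdc6* of DNA replication. The study's text also names *Slc4a1* among its down-regulated genes and describes *Ptcra* as a gene that SCL inhibits. Here *Ptcra* was higher in every array labelled SCL-LMO1, by 1.28 ± 0.16 (SE, n = 3 against 3, limma adjusted p = 0.0128). *Slc4a1* had a mean higher by 1.07, with overlap between the groups (limma adjusted p = 0.459). Whether the labels of the groups were exchanged in the deposit, or the opposite directions have another cause, was not tested. The labels are therefore not taken here as proof of genotype. *Lmo1* is a gene that the labels name, while *Ptcra*, *Slc4a1*, *Kpna2* and *Cdc6* bear on them through directions the study reports.

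A few facts of the whole series touch the results. Correlations between arrays ran from 0.969 to 0.994 over all probe sets. The hybridization controls, RNAs not of the mouse added to each array, part the arrays by their mean over 18 probe sets. The high set, at 10.4 to 10.6, holds SCL-LMO1 replicate 1 and control replicates 2 and 3. The low set, at 8.91 to 9.49, holds SCL-LMO1 replicates 2 and 3 and control replicate 1. Each set thus holds both groups, but unevenly. On the axis of greatest variation (first principal component, 54.1% of the variance of the tested genes) the low set lay at 8.93 to 21.7. The high set lay at -26.9 to -5.16, so this axis parted the sets, while the groups overlapped on it. Of the immature thymocyte markers all 11 with a probe set passed the filter, and of those of later stages 2 of 6, *Cd4* and *Itm2a*, while *Cd8a*, *Cd8b1*, *Cd5* and *Ccr7* stayed below it. Markers of cells other than thymocytes were measured as well, with all 10 of neutrophils, 6 of 7 of macrophages and dendritic cells, 5 of 6 of erythroid cells, 6 of 9 of stroma and 4 of 5 of B cells above the filter.

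Nearly all of the mitosis genes had the higher mean in the arrays labelled SCL-LMO1, and none of them passed the test. Of the 40 tested genes, 38 had a higher mean and 2, *Smc4* and *Pttg1*, a lower one. Over all 8693 genes, 4237 had a higher mean and 4456 a lower one. The median difference was 0.51 on the log2 scale with a range of -0.25 to 1.15, while the median over all 8693 genes was -0.01. At a limma adjusted p under 0.05 no mitosis gene was called in either direction, against 14 of all genes (0.161%), 7 higher and 7 lower. At the looser adjusted p under 0.1 it was *Plk1* alone, against 33 of all genes (0.380%).

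Before adjustment, 30 of the 40 genes had p under 0.05 with a higher mean and 0 with a lower mean, where 6.30% of all genes had the former. In 28 of the 40 all 3 arrays labelled SCL-LMO1 lay above all 3 control arrays, against 7.33% of all genes, and in none did they lie below. A difference of at least 0.5 was reached by 20 of the 40 and by 433 of all genes, and the median of the mitosis genes lay above 95.3% of all genes' differences. By rank products, the test the methods name, *Kpna2*, *Mki67* and *Plk1* passed as higher at a percentage of false positives under 0.1, among 48 genes higher and 42 lower. Their values were 0.021, 0.099 and 0.0996, so under 0.01, a threshold taken up after the data were seen, 0 of the 40 passed, where 18 of all genes did as higher and 14 as lower. Genes of 1 phase of the cell cycle are known to vary together, so these 40 are not independent measurements. The list was also chosen with earlier results of these data known, so these shares describe it and are no test.

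The arrays of a group were not alike. After each gene was centred on its mean over the 6 arrays, the median over the 40 genes was 0.12, 0.23 and 0.38 in SCL-LMO1 replicates 1, 2 and 3 and -0.24, -0.26 and -0.20 in control replicates 1, 2 and 3. In these medians the control arrays lay closer together than the SCL-LMO1 arrays, but gene by gene the SD was larger among control arrays in 21 of the 40 genes. SCL-LMO1 replicate 3 was the highest array of all 6 in 27 genes, and replicate 1 the lowest of its group in 26. A control array was the lowest of all in 39 genes, being replicate 1 in 11, replicate 2 in 15 and replicate 3 in 13. These arrays are of bulk RNA, in which fewer dividing cells and less of these RNAs per cell cannot be told apart.

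**Figure D1:**
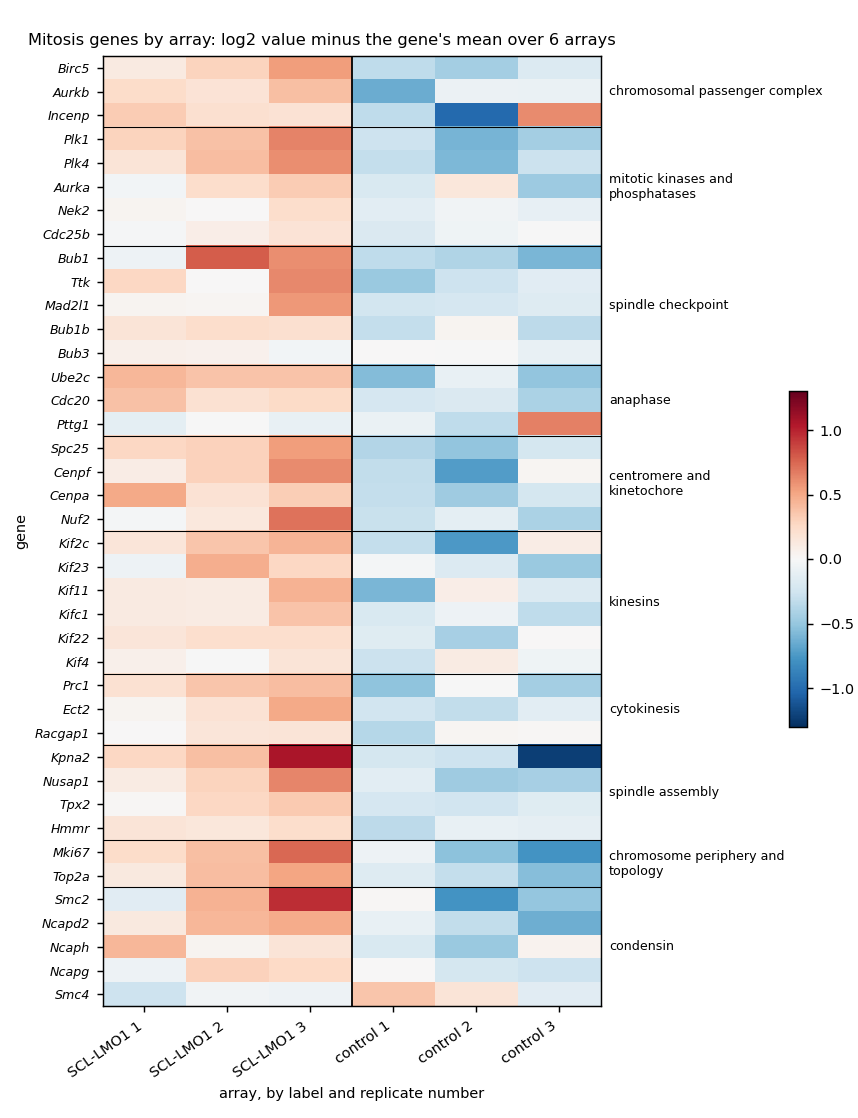
Log2 value minus the gene's mean over the 6 arrays for the 40 tested mitosis genes (rows, grouped by function) in each array (columns). Red is above and blue below the gene's mean. The 3 columns labelled SCL-LMO1 are mostly red, most of all replicate 3, the highest array in 27 of 40 genes, and *Smc4*, *Pttg1* and *Incenp* depart from the pattern.

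**Figure D2:**
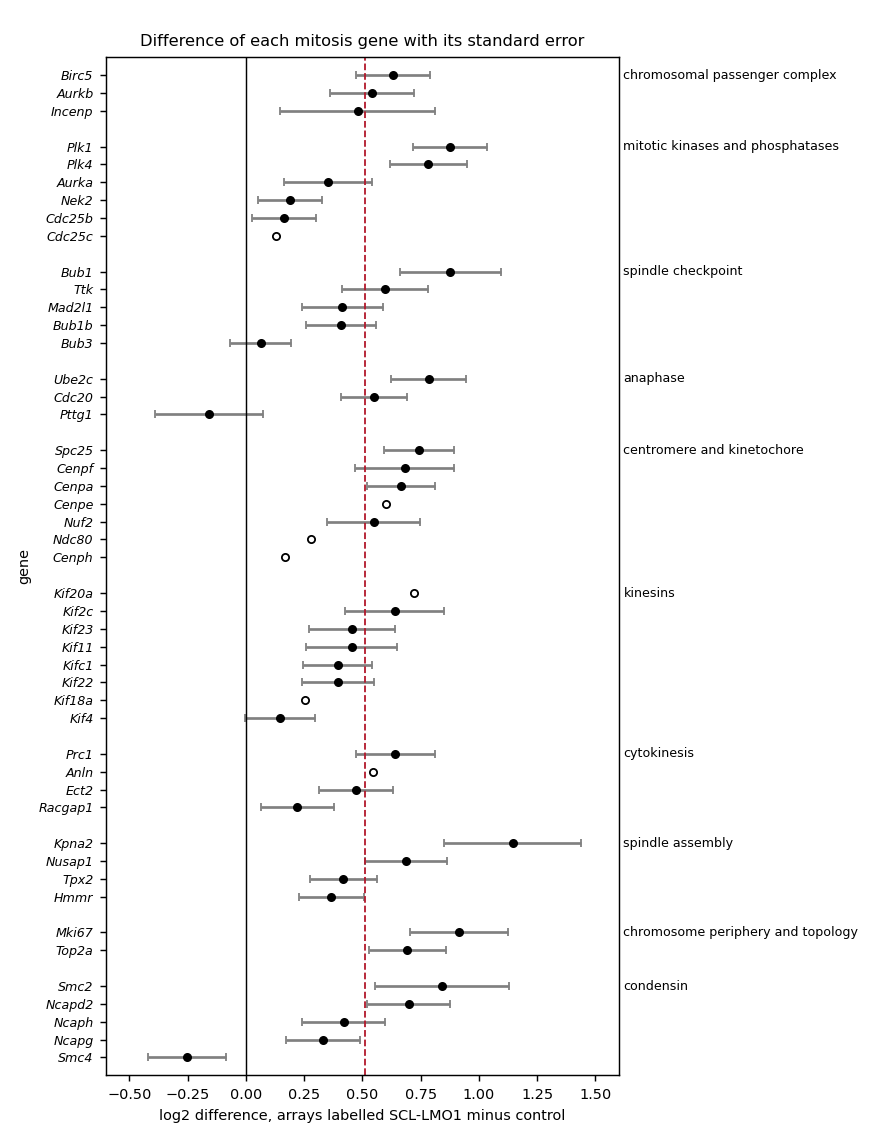
Log2 difference of the arrays labelled SCL-LMO1 minus control for the 47 measured genes, with bars for the standard error of limma (3 against 3 arrays). Open circles are the 7 genes below the filter, which have no test, and the dashed line is the median of the 40 tested genes, 0.51. All but *Smc4* and *Pttg1* lie right of 0.

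The mitotic kinases include *Plk1*, polo-like kinase, which drives mitotic entry, spindle assembly and exit. *Plk1* read 7.61, 7.69 and 7.96 in the SCL-LMO1 arrays against 7.05, 6.71 and 6.87 in the control arrays. The groups did not overlap and the spread within each was small, with SDs of 0.18 and 0.17. Its difference of 0.88 ± 0.16 (SE), 1.83-fold, had the lowest adjusted p of the 40 genes (limma adjusted p = 0.0879). *Plk4*, which licenses centriole duplication, had 6.92 to 7.36 against 6.17 to 6.47, a difference of 0.78 ± 0.16 (limma adjusted p = 0.139). *Aurka*, the kinase of spindle poles, overlapped between the groups, with 6.71 to 7.08 against 6.27 to 6.89. *Nek2*, a kinase of centrosome separation, and *Cdc25b*, a phosphatase that activates CDK1, differed by 0.19 and 0.16, and *Cdc25c* of the same family was below the filter with 0.13. Among the 5 tested genes of this kind the median was 0.35, with 2 at an unadjusted p under 0.05.

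The chromosomal passenger complex, which corrects faulty attachments and later marks the site of cleavage, had 3 tested genes with a median of 0.54. *Birc5*, survivin, read 6.93, 7.11 and 7.35 against 6.49, 6.37 and 6.64. All 3 SCL-LMO1 arrays were above the control arrays, by 0.63 ± 0.16 on average (limma adjusted p = 0.223). *Aurkb*, the kinase of the complex, had 7.40 to 7.62 against 6.58 to 7.14, again with no overlap, a difference of 0.54. *Incenp*, the scaffold, read 8.49, 8.37 and 8.35 against 7.84, 7.15 and 8.78. Here control replicate 3 was the highest array and control replicate 2 the lowest, an SD of 0.82 in the control group against 0.08, and the difference of 0.48 ± 0.33 was within that spread (limma adjusted p = 0.639). It was 0.09 without control replicate 2 and 0.91 without control replicate 3.

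In the spindle checkpoint 4 of 5 genes had no overlap between the groups, and the median was 0.41. *Bub1*, the kinase that recruits checkpoint proteins and marks centromeres, read 5.80, 6.65 and 6.47 against 5.53, 5.47 and 5.28. SCL-LMO1 replicate 1 stood much closer to the control arrays than the other 2 did, and the difference was 0.88 ± 0.22 (limma adjusted p = 0.215). Without that array it was 1.13 and passed the test (limma adjusted p = 0.0475), the only gene of the 40 to do so when 1 array was left out. *Ttk*, the MPS1 kinase at the head of the checkpoint, differed by 0.60, *Mad2l1*, which binds and holds CDC20, by 0.41, and *Bub1b*, BUBR1 of the same inhibitory complex, by 0.41. The difference of *Mad2l1* was 0.23 without SCL-LMO1 replicate 3. *Bub3*, the partner of both BUB1 and BUBR1, read 10.93, 10.92 and 10.83 against 10.87, 10.86 and 10.77. All 6 values lay close together, with SDs of 0.05 and 0.06, and the difference was 0.06 ± 0.13 (limma adjusted p = 0.865).

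Of the genes of anaphase, *Ube2c*, the ubiquitin conjugating enzyme of the anaphase promoting complex, read 6.72, 6.65 and 6.66 against 5.72, 6.18 and 5.77. Its SCL-LMO1 arrays were nearly equal, with an SD of 0.04, and all above the control arrays, by 0.78 ± 0.16 (limma adjusted p = 0.125). *Cdc20*, the activator of that complex, read 8.67 to 8.84 against 8.06 to 8.28, a difference of 0.55 ± 0.14 (limma adjusted p = 0.227). *Pttg1*, securin, the inhibitor of separase, read 10.07, 10.19 and 10.10 against 10.11, 9.86 and 10.85. Control replicate 3 alone stood apart, and the difference of -0.16 ± 0.23 (limma adjusted p = 0.807) became 0.13 without that array. The median of the 3 was 0.55, and 0.36 with probe sets averaged per gene.

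At the centromere and kinetochore all 4 tested genes were higher with no overlap, and their median was 0.67. *Spc25*, a subunit of the NDC80 complex that grips microtubules, read 8.27, 8.30 and 8.55 against 7.62, 7.49 and 7.77. Both groups were tight, with SDs of 0.15 and 0.14, and the difference was 0.74 ± 0.15 (limma adjusted p = 0.125). *Cenpf*, a large protein of the outer kinetochore, read 8.49, 8.69 and 9.01 against 8.06, 7.66 and 8.42. The highest control array lay just below the lowest SCL-LMO1 array, and the difference was 0.68 ± 0.21 (limma adjusted p = 0.373). *Cenpa*, the histone H3 variant that marks centromeres, differed by 0.67 ± 0.15 (limma adjusted p = 0.164) and *Nuf2*, another subunit of the NDC80 complex, by 0.55, which was 0.33 without SCL-LMO1 replicate 3. With probe sets averaged per gene the median was 0.43. *Ndc80* itself, *Cenpe*, a kinetochore motor, and *Cenph*, an inner kinetochore protein, were below the filter, with differences of 0.28, 0.60 and 0.17.

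Of the kinesins 6 were tested, all with a higher mean and 4 with no overlap, and the median was 0.42, which was 0.15 without x_at and s_at probe sets. *Kif2c*, MCAK, which takes microtubules apart at their ends, read 7.75, 7.96 and 8.04 against 7.29, 6.85 and 7.70. The difference of 0.64 ± 0.21 (limma adjusted p = 0.387) rests on its chosen probe set, as described with the second probe sets. *Kif22*, a chromosome arm motor, read 8.64, 8.71 and 8.71 against 8.33, 8.05 and 8.49. It differed by 0.39 ± 0.15 (limma adjusted p = 0.461), with almost no spread among the SCL-LMO1 arrays. Another probe set of *Kif22* above the filter differed by 0.04 with overlap. *Kif11*, Eg5, which slides spindle poles apart, differed by 0.45, *Kif23*, a motor of the central spindle, by 0.46, *Kifc1*, a minus end motor, by 0.39, and *Kif4*, a chromosome-bound motor, by 0.15 with overlap. *Kif20a*, a motor of the central spindle that carries the passenger complex, was below the filter in spite of 5.17, 5.44 and 5.41 against 4.78, 4.71 and 4.36, a difference of 0.72 with no overlap. *Kif18a*, which damps chromosome movement, was below it too, with 0.25.

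In cytokinesis, *Prc1*, which bundles the microtubules of the central spindle, read 8.48, 8.64 and 8.68 against 7.76, 8.28 and 7.84. Control replicate 2 came nearest to the SCL-LMO1 arrays, and the difference was 0.64 ± 0.17 (limma adjusted p = 0.243). *Ect2*, which activates RHOA at the furrow, differed by 0.47 with no overlap, and *Racgap1*, the centralspindlin subunit that recruits it, by 0.22 with overlap. *Anln*, anillin of the contractile ring, was below the filter with 0.54.

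Among the genes of spindle assembly, all 4 had no overlap between the groups. *Kpna2*, importin alpha, which holds TPX2 and other spindle factors until RAN-GTP frees them, read 8.89, 9.01 and 9.69 against 8.40, 8.36 and 7.40. It had the largest difference of the 40, 1.15 ± 0.29, 2.21-fold (limma adjusted p = 0.229), with SCL-LMO1 replicate 3 far above and control replicate 3 far below the rest. Both groups were therefore wide, with SDs of 0.43 and 0.57. *Nusap1*, which bundles microtubules near chromosomes, differed by 0.69 ± 0.18 (limma adjusted p = 0.229), *Tpx2*, which activates Aurora A on the spindle, by 0.42, and *Hmmr*, a spindle pole protein, by 0.37.

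*Mki67*, Ki-67, coats mitotic chromosomes and keeps them apart. It read 9.03, 9.19 and 9.54 against 8.74, 8.27 and 8.02, without overlap and 0.91 ± 0.21 higher on average (limma adjusted p = 0.188). *Top2a*, topoisomerase II alpha, which untangles sister chromatids, had 8.76 to 9.14 against 8.07 to 8.47, a difference of 0.69 ± 0.17 (limma adjusted p = 0.202).

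Condensin was the group whose tested genes had the widest range of differences, from -0.25 to 0.84. *Smc2*, an ATPase subunit of both condensins, read 7.82, 8.42 and 8.92 against 7.98, 7.18 and 7.46. The arrays overlapped, since SCL-LMO1 replicate 1 was below control replicate 1, and the difference was 0.84 ± 0.29 (limma adjusted p = 0.395). *Smc4*, the other ATPase and the direct partner of *Smc2*, read 10.03, 10.25 and 10.23 against 10.66, 10.46 and 10.15. It had the lowest difference of the 40 genes, -0.25 ± 0.17 (limma adjusted p = 0.631), with overlap through control replicate 3. Of the subunits of condensin I, *Ncapd2* differed by 0.70 ± 0.18 with no overlap (limma adjusted p = 0.228), and *Ncaph* and *Ncapg* by 0.42 and 0.33 with overlap. The median of the 5 was 0.42.

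**Figure D3:**
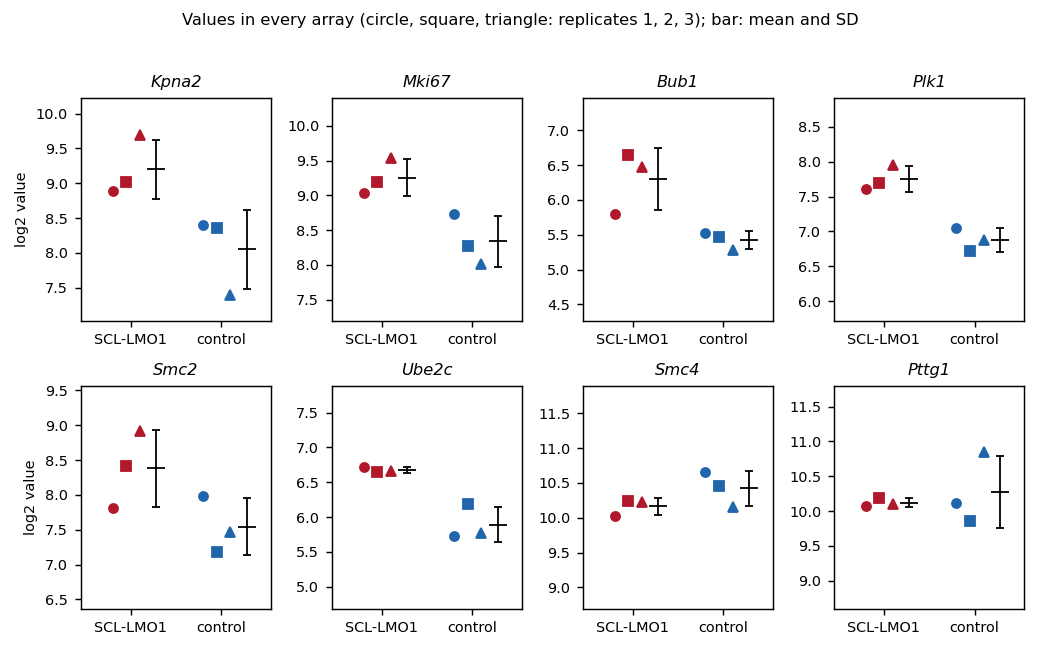
Log2 values in each array for the 6 mitosis genes with the largest difference and for *Smc4* and *Pttg1*, the 2 with a lower mean, with replicates 1, 2 and 3 as circle, square and triangle and a bar for the mean and SD (n = 3) of each group. All panels span the same length of the log2 scale, and the groups stand apart in *Plk1*, from 7.61 up against 7.05 down, while they overlap in *Smc2*, *Smc4* and *Pttg1*.

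All 7 genes below the filter had a higher mean in the arrays labelled SCL-LMO1, by 0.13 to 0.72, and *Ndc80* and *Kif20a* had no overlap.

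Within the hybridization sets the direction was largely the same. In the low set, SCL-LMO1 replicates 2 and 3 minus control replicate 1, 39 of the 40 genes were higher and the median was 0.56. In the high set, SCL-LMO1 replicate 1 minus control replicates 2 and 3, it was 37 genes and 0.40. Over all genes these medians were 0.0026 and 0.0011, and 37 of the 40 mitosis genes but 2644 of 8693 genes were higher in both. The difference was larger within the low set in 30 genes and within the high set in 10. *Plk1* differed by 0.78 and 0.82 and *Kpna2* by 0.95 and 1.01, close to equal in both sets. *Kif11* had 0.88 in the low and 0.16 in the high set, *Aurkb* 0.93 and 0.32, and *Bub1* 1.03 and 0.42. The medians of the 10 functions ran from 0.30 to 0.75 in the low and from 0.13 to 0.73 in the high set. *Racgap1* was at -0.01 in the high set and *Smc4* below 0 in both, at -0.42 and -0.28. With the set as a block in the fit, 0 mitosis genes passed at an adjusted p under 0.05 and 6 under 0.1, and the median was 0.52. Each set holds at most 2 arrays of a group, so these values have no test of their own.

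**Figure D4:**
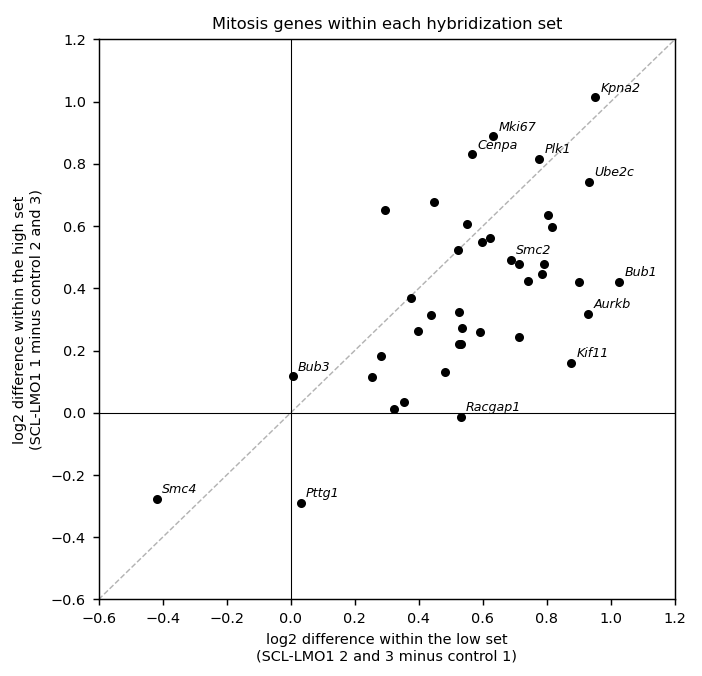
Log2 difference within the low hybridization set (x axis, SCL-LMO1 2 and 3 minus control 1) and within the high set (y axis, SCL-LMO1 1 minus control 2 and 3) for the 40 tested mitosis genes, with a dashed line where both are equal. The 37 genes in the upper right were higher in both sets, and 30 of 40 lie on the side where the low set differs more.

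The members had 83 probe sets in all, and second probe sets gave a weaker picture. In 14 of the tested genes, 21 further probe sets passed the filter. Of these 13 had a higher mean and 8 a lower one, with a median of 0.10, where the chosen probe sets of the same 14 genes had 0.47. *Kif2c* had 3 others with differences of -0.19, 0.10 and -0.07 beside the 0.64 of the chosen one, so its direction depends on the probe set. *Cenpf* had another at -0.17, *Spc25* another at -0.11 and *Kif22* another at 0.04. The others of *Incenp* had 0.37 and -0.18, and those of *Cdc20* had 0.56 and -0.03. In *Plk4*, *Prc1*, *Kif11* and *Ncaph* the others were higher as well, with 0.41 in *Plk4* and 0.40 in *Prc1*. The others of *Pttg1* had 0.09 and 0.11, and both others of *Smc4* were lower, at -0.13 and -0.22. *Kpna2*, *Mki67*, *Plk1*, *Birc5*, *Ube2c* and *Cenpa* had 1 probe set each. In 5 genes the values came from a probe set whose name marks probes shared with other transcripts (x_at), namely *Aurkb*, *Incenp*, *Kif2c*, *Kif22* and *Ncaph*. In 4 of these 5 control replicate 3 was the highest control array, which it was in 11 of the other 35, and the part of cross-hybridization in their values was not tested. With all probe sets of the kinds x_at and s_at left out, a choice made after the data were seen, 38 genes were tested, 36 were higher and the median was 0.44.

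Other genes of mitosis outside the 50 were taken from lists of the same processes. Together 44 of 70 were tested and 35 had a higher mean, with a median of 0.16, and 0 passed at an adjusted p under 0.05. Of these 44, 15 had an unadjusted p under 0.05 with a higher mean and 0 with a lower one. Among its spindle and cytokinesis genes the largest differences were those of *Pbk*, a mitotic kinase, with 8.16, 8.38 and 8.76 against 7.81, 7.16 and 7.55 (0.92), *Cep55*, which recruits the abscission machinery (0.84), and *Melk*, a kinase of dividing cells (0.74). The 13 tested kinetochore and checkpoint genes among them had a median of 0.14, led by *Cenpk* (0.65), *Ska2* (0.46) and *Mis12* (0.36), and *Zwint*, *Zw10*, *Cenpn* and *Dsn1* differed by 0.11, -0.03, -0.03 and -0.06.

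Mitotic cyclins and their regulators had a median of 0.44 over 11 of 12 genes, 6 of them with an unadjusted p under 0.05. *Cks1b*, a subunit of cyclin dependent kinases, differed by 0.90, *Ccna2*, cyclin A2, by 0.72 and *Cdk1*, the mitotic kinase itself, by 0.65, while *Foxm1*, a transcription factor for many of these genes, had 7.19, 7.24 and 7.02 against 7.15, 7.42 and 7.37 (-0.16). The subunits of the anaphase promoting complex, which *Ube2c* and *Cdc20* serve, had a median of 0.15 over 11 of 14 genes, and *Anapc11* (0.69) was the one of them with an unadjusted p under 0.05. Condensin II and cohesin had a median of 0.23 over 10 of 14, with *Ncapg2* (0.75) and *Cdca5*, sororin (0.52), in the lead, and *Smc3*, *Rad21* and *Stag2* of the cohesin ring had 0.22, 0.17 and 0.14. DNA replication genes had a median of 0.50 over 24 of 28, close to that of the mitosis genes, and 15 had an unadjusted p under 0.05, with *Rfc4* (1.08), *Cdc6* (1.06) and *Prim1* (0.88) at the top, and within the low and the high set the median was 0.39 and 0.46. In none of these lists did a gene pass at an adjusted p under 0.05, and differences between lists were not tested.

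Markers of other cells moved with the labels too. Of 10 neutrophil markers, all tested, 8 had a higher mean in the arrays labelled SCL-LMO1, 7 with no overlap and an unadjusted p under 0.05, and the median was 1.44. Within the low and the high set it was 1.90 and 0.98. Their mean log2 level was 6.76 to 7.59 in those arrays and 5.65 to 6.35 in control arrays, and *S100a8* differed most, by 2.09. Of 4 tested B cell markers 3 were lower, with a median of -0.51 and mean levels of 5.80 to 5.90 against 6.06 to 6.55. *Pax5*, a defining factor of B cells, was below the filter. The 3 tested markers of NK and innate lymphoid cells had a median of 0.50 and mean levels of 8.67 to 8.996 against 8.02 to 8.79, and the defining receptor *Ncr1* was below the filter. The mast cell gene *Cpa3* was lower by 2.53 and passed the test (limma adjusted p = 7.62e-05), and the 3 other tested genes of that list differed by -0.11 to -0.23. Erythroid, macrophage and stromal lists had medians of 0.35, 0.05 and -0.13, and the erythroid one was 0.42 within the low and -0.05 within the high set. Immature thymocyte markers had a median of 0.19 over 11 genes, 9 with a higher mean and 2 with a lower one. In 4 of them the groups did not overlap, namely *Ptcra*, *Rag1* (0.97), *Rag2* (0.82) and *Dtx1* (0.38). Of the 11, *Ptcra* alone passed the test, as higher by 1.28. The direction of *Ptcra* bears on the labels, as described with *Lmo1*. The part of any of these cells in the difference of the mitosis genes was not tested. SCL-LMO1 replicate 3 was the highest array for both the neutrophil list (1.19 above its centre in the median) and the mitosis genes (0.38). Replicates 1 and 2 were at 0.56 and 0.15 for neutrophils and at 0.12 and 0.23 for mitosis. In both lists every SCL-LMO1 array lay above every control array in these medians.

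**Figure D5:**
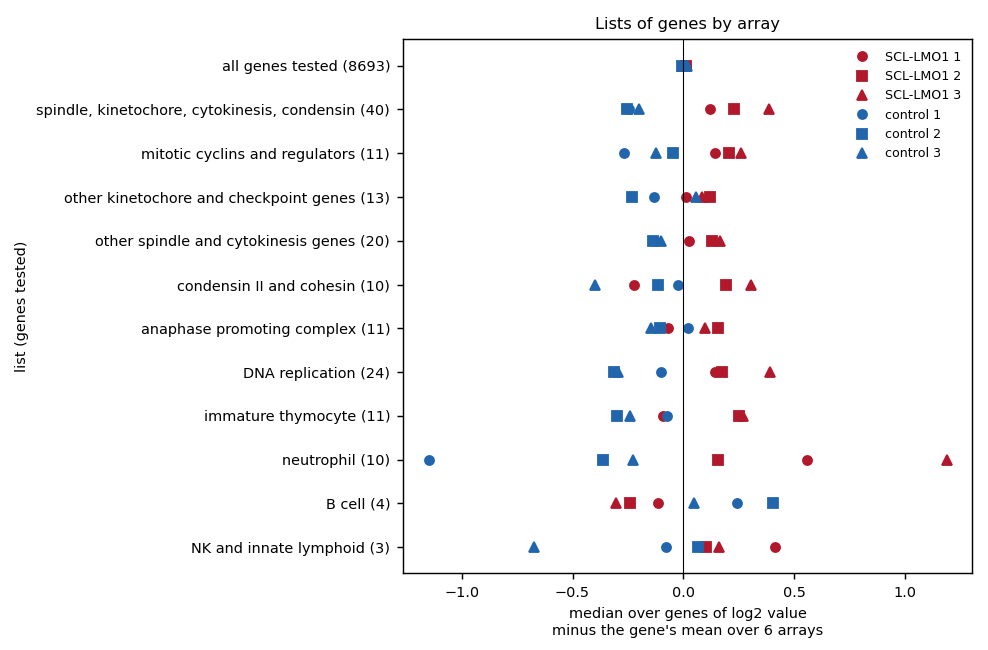
Median over genes of the log2 value minus the gene's mean over 6 arrays (x axis) for each list (rows, with the number of genes tested) in each array, red for SCL-LMO1 and blue for control, with replicates 1, 2 and 3 as circle, square and triangle. For the 40 mitosis genes the SCL-LMO1 arrays lie at 0.12, 0.23 and 0.38 and the control arrays between -0.26 and -0.20, and neutrophil markers spread most widely.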

How the data were processed

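Gene expression was measured in thymocytes of *Cd3e-/-* mice on 6 Affymetrix mouse expression arrays, 3 labelled SCL-LMO1 and 3 control. The authors deposited RMA values on the log2 scale for 22690 probe sets, computed with affy (version not given in the sources used here). The authors then dropped probe sets that MAS5 called absent, a step the deposited log2 values do not hold. RMA quantile normalizes the arrays, so a shift common to most genes would not be seen.

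By the platform annotation 20393 probe sets name a single gene, 691 more than 1 and 1606 no gene. The 3 against 3 arrays were fitted with limma 3.58.1 (R 4.3.3) over 8693 genes, with no covariate and Benjamini-Hochberg adjustment. Rank products used the 9 pairwise differences and 100 permutations. The fits were tested on simulated data. Tables were made in Python 3.11.15 with pandas 2.3.3 and matplotlib 3.10.9.

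The members and all lists were chosen with earlier results of these data known. By rule, values in every array and full statistics are given per function for the gene with the largest difference and the gene with the highest mean, with up to 3 genes of each other list. Values in every array for *Kif20a* and *Foxm1*, the further full statistics and the other genes named from those lists and from the markers were chosen after their values were seen.

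Alternatives changed the filter (none, or the 60th percentile), the scaling (a second quantile normalization, or centring on array medians), the variance model (trend and robust, or array weights), the blocks (replicate number, or hybridization set), the probe sets (their mean per gene), the threshold (0.1), the test (rank products under 0.1) and the arrays (each left out). Those added after the data were seen are the fit without x_at and s_at probe sets and rank products under 0.01, the threshold in the title of the study's list.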

Additional observations from a re-analysis of the deposited data

How the results depend on the processing

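With 3 arrays a group, the number of genes called moved with the settings, while the direction of most mitosis genes did not. Of 632 values of single mitosis genes under the alternatives, 605 kept direction and side of the threshold, 21 passed it and 6 changed sign. The sign changed for *Bub3* with a second quantile normalization (-0.0121), for *Pttg1* with array weights (0.0453), with probe sets averaged per gene (0.013), without x_at and s_at probe sets (0.0909) and without control replicate 3 (0.13, the top of a leave-one-out range from -0.36), and for *Kif2c* without x_at and s_at probe sets (-0.19). In the other 37 genes it did not change.

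Genes called in all were 14 in the fit as reported, 31 with a second quantile normalization, 541 with array weights, 28 when the hybridization set was a block, 33 at an adjusted p under 0.1, 90 by rank products, 32 by rank products at the threshold of 0.01, and 7 to 27 with 1 array left out, the lowest without control replicate 2 and the highest without control replicate 1. They were 8 without SCL-LMO1 replicate 2 and 8 without replicate 3. Mitosis genes called were 20 with array weights, 1 at an adjusted p under 0.1, 3 by rank products and 0 to 1 with 1 array left out, where the 1 is *Bub1* without SCL-LMO1 replicate 1, and 0 under the remaining alternatives. Array weights gave SCL-LMO1 replicate 2 a weight of 4.96 and the others 0.44 to 1.44, so the 20 calls lean on that array. The median of the mitosis genes was 0.41 with probe sets averaged per gene and 0.44 to 0.57 with 1 array left out. The median of the kinases was 0.20 without control replicate 3 and 0.57 with the filter at the 60th percentile, against 0.35. With 1 array left out the difference of 13 mitosis genes moved by over 1.5 times, namely *Bub3*, *Incenp*, *Kif4*, *Mad2l1*, *Nek2*, *Nuf2*, *Pttg1* and *Smc4*, *Aurka* (0.20 without control replicate 3), *Kif2c* (0.42 without control replicate 2) and, without control replicate 1, *Aurkb* (0.35), *Kif11* (0.27) and *Racgap1* (0.09).

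The groups share replicate numbers. Deviations of same-numbered arrays from their group means correlated at -0.64, 0.01 and -0.38, and the numbers give no pairs. With the replicate block 9 genes were called in all and 0 mitosis genes, and 21 in place of 30 mitosis genes had an unadjusted p under 0.05.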
